A study of Gossypium hirsutum with 30 samples.

Results

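Lipid transfer proteins (LTPs) and ATP-binding cassette transporters of the white/brown complex (WBC) type carry lipids towards the plant surface, and 5 of their transcripts are described here in ovules of a fibreless cotton. They are WBC1, a second WBC, the membrane-anchored LTPG1 and 2 further LTPs, each read by 1 of the 24029 probe sets tested, and they were taken by probe set ID from the tables in which the study lists its differentially expressed transcripts (DETs). Ovules came from the fuzzless-lintless (fl) mutant, a single spontaneous line whose seeds bear neither lint nor fuzz, and from its near-isogenic fibre-bearing wild type (WT), Gossypium hirsutum cv. MCU5, both grown in the field without treatment. Each genotype was sampled at 0, 5, 10, 15 and 20 days post anthesis (dpa), with 3 biological replicates per genotype and stage, so that 30 Affymetrix cotton GeneChip arrays fall into 10 groups. How far the replicates were separate plants is not given in the sources used here, and p-values measure only the spread between these arrays.

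Cotton fibres are single cells that grow out of the outer epidermis of the ovule. A growing epidermal cell needs new plasma membrane and a widening cuticle, whose wax and cutin are built from very long chain and hydroxylated fatty acids. In Arabidopsis, the WBC transporters WBC11 (ABCG11) and WBC12 (ABCG12, CER5) work together in the plasma membrane to export wax, and WBC11 is also needed for cutin. LTPs are small cysteine-rich proteins that hold lipid in a hydrophobic pocket and are mostly secreted into the wall, whereas LTPG1 stays tethered to the outer face of the plasma membrane by a glycosylphosphatidylinositol anchor and is needed for normal wax deposition on Arabidopsis stems.

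WBC1 is probe set Ghi.634.1.S1_s_at, whose best Arabidopsis match is WBC11 (AT1G17840) in one of the study's tables and CER5 (AT1G51500) in another. The second WBC is Ghi.9168.1.A1_s_at and matches CER5. LTPG1 is GarAffx.29986.1.S1_s_at (AT1G27950), designed on a G. arboreum sequence, and LTP1 is GbaAffx.190.1.S1_x_at (AT2G38540, LTP1, or AT5G59320, LTP3), designed on G. barbadense. The last of the transcripts, Ghi.6067.1.A1_at, has only a weak match in the protease inhibitor, seed storage and LTP superfamily (AT3G22600) and is called the LTP family transcript. The probe sets of WBC1, the second WBC and LTPG1 are of a type that matches several near-identical transcripts (_s_at), and some probes of the LTP1 set can bind other sequences (_x_at), so the gene copies of the A and D subgenomes of this tetraploid were not told apart. None of the members has a gene in the platform annotation, and their genome positions were not analysed here.

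The primer sheet for quantitative RT-PCR holds 28 transcripts on the array, LTP1 among them, and the LTP1 pair is shown because it identifies a member that was also assayed by a second method at the same stages. Those measurements were not used here. The study reports that both methods gave similar patterns for every gene it assayed, in the direction of its own fold tables. At 5 and 20 dpa that direction is the reverse of the sample labels, from which the direction below is taken. Each primer is 24 bases long with 12 G or C, written 5′ to 3′.
LTP1 forward: cggcatttctggcatcaactatgg
LTP1 reverse: tggcttccactagctggtgaactt
No sequence of the other members was used here.

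Values are log2 intensities summarised by the authors and shifted so that the 6 arrays of a stage have a median of 0 for every probe set. They carry the difference between the genotypes within a stage and no level, so neither stages nor transcripts can be ranked by abundance, and where the groups do not overlap the nearest arrays of the genotypes lie at equal distances on either side of 0. Every difference below is fl mutant minus WT on the log2 scale with its standard error (SE) and an adjusted p from limma with Benjamini-Hochberg adjustment over all 24029 probe sets, n = 3 arrays per genotype. Calls follow the cut-offs of the study, an adjusted p no higher than 0.01 together with a change of 3-fold or more. At 5 and 20 dpa the sample labels give the reverse of the direction printed in the study's own fold tables. The labels were kept, and at these stages the groups are named as the arrays labelled fl mutant and the arrays labelled WT. By the labels, 441 of the 484 probe sets called at 5 dpa were higher in the arrays labelled fl mutant. At 20 dpa 594 of 1062 were. The study describes a large majority of its transcripts as down-regulated in the fl mutant at the earlier of these stages. Which direction is right was not tested, so a member called higher by the labels there may be lower in the fl mutant.

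The members were called lower in the fl mutant mostly at 10 and 15 dpa, during fibre elongation. At 0 dpa 1 of the 5 was lower (WBC1), where 1.39% of all probe sets were called lower. At 5 dpa 1 was higher in the arrays labelled fl mutant (the LTP family transcript, against 1.84% of all probe sets called higher). At 10 dpa 4 were lower, all but the LTP family transcript, which was higher, where 6.55% of all probe sets were called lower and 4.91% higher. At 15 dpa 3 were lower (WBC1, LTP1 and the LTP family transcript, against 1.91%), and at 20 dpa 2 were higher in the arrays labelled fl mutant (LTP1 and the second WBC, against 2.47%). The members come from lists of DETs that the study made on these same arrays, so their excess over these shares is a description and not independent evidence. In all, by the labels, 12 of 25 combinations of member and stage were called, 8 lower and 4 higher. The calls at 5 and 20 dpa, all higher by the labels, become lower with the labels exchanged. The LTP family transcript at 10 dpa is then the only one called higher.

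The fl mutant and WT arrays were fully apart in 5, 4, 5, 4 and 5 of the 5 members at the stages in order. That is common in these data, since groups without overlap were found in 56.9, 49.2, 64.3, 54.8 and 58.3% of probe sets at the same stages. The median difference of the 5 members was −1.21, 0.18, −3.36, −2.11 and 0.79 over the same stages, while the median of all probe sets was 0.09, −0.07, 0.04, −0.01 and 0.01. Because whole ovules were assayed, fewer fibre cells in the sample and less RNA of a transcript per cell cannot be told apart.

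**Figure D1:**
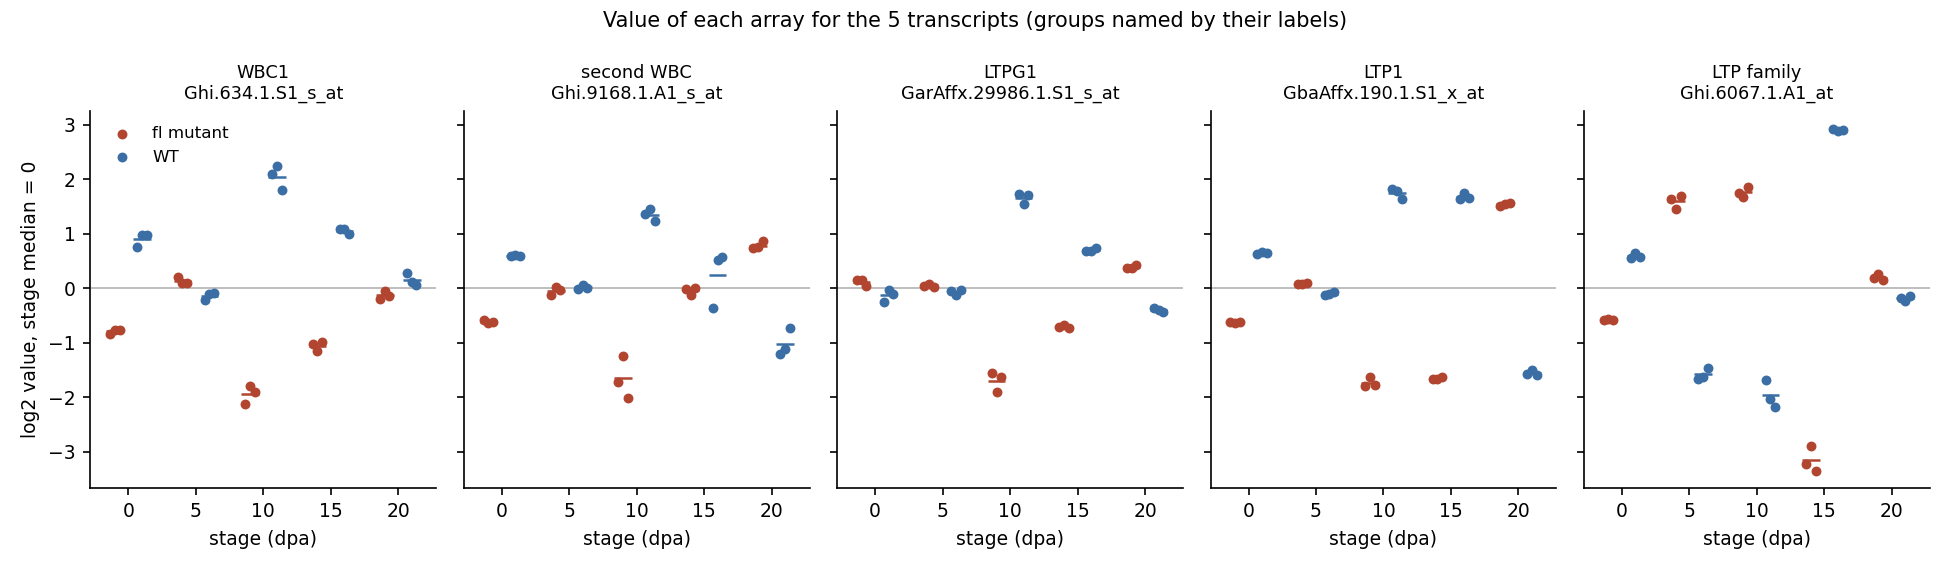
Log2 value of each array (stage median set to 0) for the 5 transcripts at 0 to 20 dpa, fl mutant arrays in red to the left of WT arrays in blue, with group means as bars (n = 3 arrays per group, named by their labels). At 10 dpa WBC1, the second WBC, LTPG1 and LTP1 lay below 0 in all 3 fl mutant arrays and above 0 in all 3 WT arrays, while the LTP family transcript lay the other way round.

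WBC1 was called lower at 0 dpa and again at 10 and 15 dpa. At 0 dpa it read −0.84, −0.76 and −0.77 in the fl mutant and 0.76, 0.97 and 0.98 in WT. The arrays of the genotypes were well apart, and the difference of −1.69 (SE 0.0754, adjusted p = 4.59e-06), 3.23-fold lower, lay just past the fold threshold. At 10 dpa the values were −2.12, −1.80 and −1.90 in the fl mutant and 2.09, 2.25 and 1.80 in WT. This is the widest separation of WBC1 over the 5 stages, −3.99 (SE 0.137, adjusted p = 6.72e-08) or 15.8-fold lower, with only 1.31% of all probe sets showing a larger difference of either sign. At 15 dpa it read −1.02, −1.16 and −0.99 in the fl mutant and 1.08, 1.09 and 0.99 in WT, a difference of −2.11 (SE 0.0613, adjusted p = 1.06e-06) or 4.31-fold lower. At none of these stages did an array of one genotype reach those of the other.

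At 5 and 20 dpa WBC1 differed little between the labelled groups. It averaged 0.13 ± 0.071 in the arrays labelled fl mutant and −0.14 ± 0.064 in those labelled WT at 5 dpa (SD, n = 3), a difference of 0.27 with a 95% interval of 0.12 to 0.43 (limma adjusted p = 0.0162). The difference at 20 dpa was −0.28 with an interval of −0.47 to −0.10 (adjusted p = 0.0187). Neither passed either threshold, and either interval leaves room only for changes well under 2-fold.

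The second WBC, like WBC1, was lower in the fl mutant at 10 dpa, but it was not called at 15 dpa. No test of one WBC against the other was run. At 10 dpa it read −1.72, −1.24 and −2.01 in the fl mutant and 1.36, 1.45 and 1.24 in WT, and the difference was −3.01 (SE 0.180, adjusted p = 1.60e-06), 8.06-fold lower. The fl mutant arrays were the more scattered here, with an SD of 0.39 against 0.10 in WT. At 0 dpa the difference was −1.21 (SE 0.0503, adjusted p = 3.23e-06), with all 3 fl mutant arrays between −0.63 and −0.59 and all 3 WT arrays between 0.59 and 0.61. That is a tight 2.32-fold difference which passed the adjusted p and missed the fold threshold.

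At 15 dpa the second WBC was not called, and a single array decided how the groups looked. It read −0.01, −0.12 and 0.01 in the fl mutant and −0.37, 0.51 and 0.57 in WT. WT replicate 1 fell below all 3 fl mutant arrays, the groups overlapped, and the difference was −0.27 (SE 0.246, adjusted p = 0.415, 95% interval −0.87 to 0.32). Without WT replicate 1 it was −0.58 (limma adjusted p = 0.00119), past the adjusted p and still short of the fold threshold. Over all probe sets that array deviated from its group mean by a root mean square of 0.108, within the range of 0.0847 to 0.153 over the 30 arrays.

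The genotype labels at 20 dpa gave the second WBC the opposite sign. It read 0.73, 0.76 and 0.86 in the arrays labelled fl mutant and −1.20, −1.12 and −0.73 in those labelled WT, so that it was higher by 1.80 (SE 0.124, adjusted p = 6.64e-06), 3.49-fold. With the labels exchanged at this stage the value is −1.80. At 5 dpa the labelled groups overlapped, with a difference of −0.07 and a 95% interval of −0.21 to 0.08 (adjusted p = 0.448).

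A further WBC probe set of the study's tables also matches CER5 and was called at 15 dpa, where it read −1.19, −1.26 and −1.22 in the fl mutant and 1.19, 1.44 and 1.23 in WT, a difference of −2.51 (SE 0.0726, adjusted p = 1.04e-06). At 10 dpa, where both WBC members were called, its arrays were scattered, with −0.95, −0.35 and −0.83 in the fl mutant and 0.65, 0.93 and 0.35 in WT. Its difference there was −1.35 (SE 0.189, adjusted p = 0.000306), under the fold threshold and of the same sign as in both members. Over the 30 arrays the 3 WBC probe sets had Pearson correlations of 0.76 (WBC1 and the second WBC), 0.80 (WBC1 and the further one) and 0.62 (the second WBC and the further one), which is a description over points that share their arrays and stages.

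LTPG1 differed between the genotypes chiefly at 10 dpa. It read −1.55, −1.91 and −1.63 in the fl mutant and 1.73, 1.55 and 1.71 in WT, a difference of −3.36 (SE 0.115, adjusted p = 6.52e-08) or 10.3-fold lower. The arrays of each genotype lay close together and far from those of the other. At 15 dpa the fl mutant arrays lay at −0.71, −0.68 and −0.73 and the WT arrays at 0.69, 0.68 and 0.74. This difference of −1.41 (SE 0.0423, adjusted p = 1.22e-06), 2.65-fold, is many times its error but fell short of the fold threshold of 3.

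LTPG1 was the member with no sign of a lower value at 0 dpa. It averaged 0.12 ± 0.068 in the fl mutant and −0.13 ± 0.11 in WT (SD, n = 3), a difference of 0.25 with a 95% interval of 0.08 to 0.43 (limma adjusted p = 0.0275). At 5 dpa the difference was 0.12 with an interval of −0.01 to 0.25 (adjusted p = 0.148). The arrays labelled fl mutant at 20 dpa read 0.37, 0.38 and 0.42 and those labelled WT −0.37, −0.40 and −0.44. The difference of 0.79 (SE 0.0637, adjusted p = 1.74e-05) is 1.73-fold and was not called.

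LTP1 kept a difference of nearly the same size at 10 and 15 dpa. At 10 dpa it read −1.79, −1.63 and −1.78 in the fl mutant and 1.82, 1.78 and 1.63 in WT, and was lower by 3.47 (SE 0.0921, adjusted p = 1.75e-08), 11.1-fold. All fl mutant arrays lay below all WT arrays, as they did again later. At 15 dpa the values were −1.67, −1.67 and −1.63 in the fl mutant and 1.63, 1.75 and 1.65 in WT, and the difference was −3.33 (SE 0.0479, adjusted p = 8.45e-08), 10.1-fold lower. Relative to the rest of the array the later difference stands out more, since 2.08% of probe sets had a larger difference at 10 dpa and 0.824% at 15 dpa.

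As labelled, LTP1 was higher at 20 dpa by about as much as it was lower before. It read 1.51, 1.55 and 1.56 in the arrays labelled fl mutant and −1.57, −1.51 and −1.59 in those labelled WT, a difference of 3.10 (SE 0.0642, adjusted p = 1.22e-08) or 8.56-fold. With the labels exchanged it is −3.10, the same sign as at 10 and 15 dpa. At 0 dpa LTP1 read −0.62, −0.63 and −0.62 in the fl mutant and 0.62, 0.67 and 0.65 in WT, −1.27 (SE 0.0508, adjusted p = 2.67e-06), which passed the adjusted p and not the fold threshold. At 5 dpa the difference was 0.18 with a 95% interval of 0.05 to 0.31 (adjusted p = 0.0372).

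The LTP family transcript changed sign from 10 to 15 dpa. At 10 dpa it read 1.75, 1.68 and 1.86 in the fl mutant and −1.68, −2.03 and −2.18 in WT, higher by 3.72 (SE 0.134, adjusted p = 9.05e-08), 13.2-fold. The 3 fl mutant arrays were the high ones there and the low ones at 15 dpa, without overlap at either stage. At 15 dpa it read −3.23, −2.89 and −3.35 in the fl mutant and 2.93, 2.89 and 2.90 in WT. There it was lower by 6.06 (SE 0.114, adjusted p = 1.94e-07) or 66.9-fold, rank 11 among the lower probe sets of that stage, with 0.0499% of all probe sets showing a larger difference.

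The same transcript was the member called at 5 dpa. It read 1.63, 1.46 and 1.69 in the arrays labelled fl mutant and −1.66, −1.63 and −1.46 in those labelled WT, a difference of 3.18 (SE 0.0849, adjusted p = 2.99e-07) or 9.06-fold, and −3.18 with the labels exchanged. At 0 dpa it was lower by 1.17 (SE 0.0549, adjusted p = 5.95e-06), 2.25-fold, with the fl mutant arrays between −0.59 and −0.56 and the WT arrays between 0.56 and 0.65. At 20 dpa the labelled groups differed by 0.38 (SE 0.0670, adjusted p = 0.00157), a 1.30-fold difference that was not called.

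**Figure D2:**
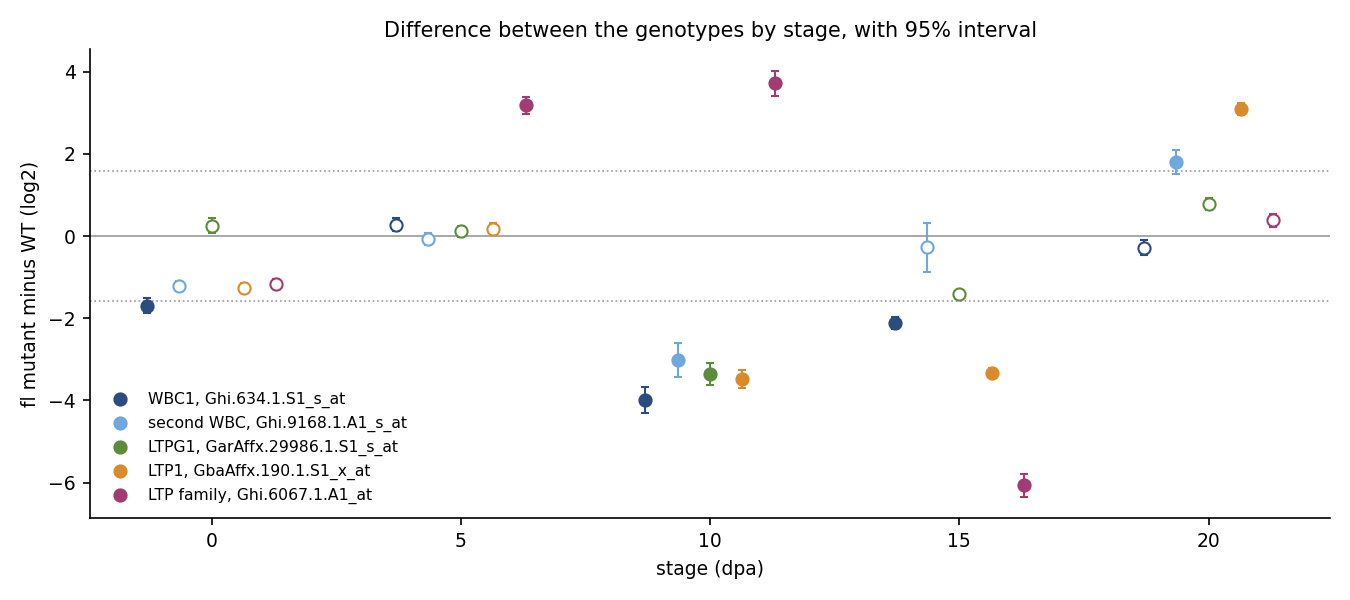
Difference fl mutant minus WT (log2) of the 5 transcripts at each stage, with 95% intervals from limma (n = 3 arrays per genotype, labels as given). Filled points passed both thresholds, open points did not, and dotted lines mark a fold change of 3. The LTP family transcript stands at 3.72 at 10 dpa and −6.06 at 15 dpa, while the other 4 members are between −3.99 and −3.01 at 10 dpa.

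The order of the members differed between 0, 10 and 15 dpa. At 10 dpa the intervals of WBC1 (−4.30 to −3.67), LTP1 (−3.69 to −3.26), LTPG1 (−3.63 to −3.10) and the second WBC (−3.43 to −2.60) each overlapped that of the next in order. Such overlap does not decide whether neighbours differ. The LTP family transcript (3.42 to 4.03) stood apart above 0. At 15 dpa the order was the LTP family transcript (−6.34 to −5.79), LTP1 (−3.45 to −3.22), WBC1 (−2.26 to −1.96), LTPG1 (−1.51 to −1.31) and the second WBC (−0.87 to 0.32), and no interval touched the next. At 0 dpa WBC1 (−1.87 to −1.51) lay below LTP1 (−1.39 to −1.15), the second WBC (−1.33 to −1.09) and the LTP family transcript (−1.30 to −1.04), which overlapped each other, and LTPG1 (0.08 to 0.43) lay above them. No test of one member against another was run.

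**Figure D3:**
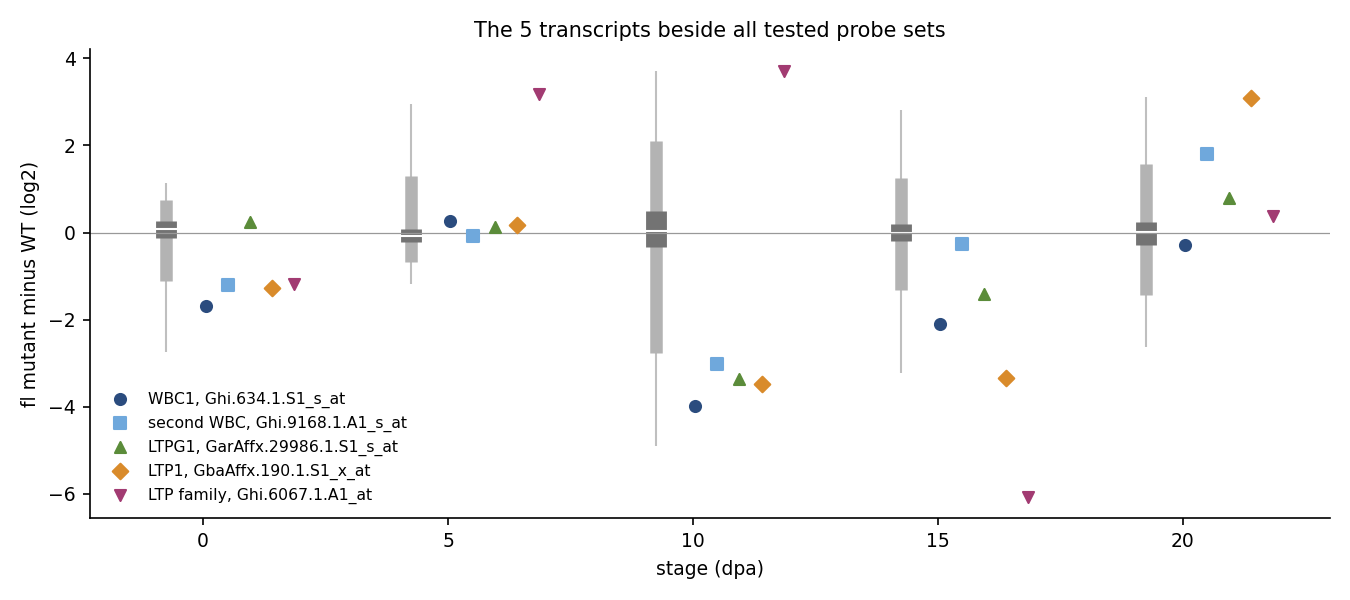
Difference fl mutant minus WT (log2) of the 5 transcripts, as symbols, beside the spread of all 24029 probe sets at each stage. The dark bar holds the middle 50% of probe sets, the light bar the middle 95% and the thin line the middle 99%. At 15 dpa the LTP family transcript at −6.06 and LTP1 at −3.33 lie beyond the line.

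Whether the genotype difference itself changed between stages was tested with limma on the 30 arrays together. The members were listed as DETs on these same arrays, so how many pass, here and in the next comparisons, is a description and not independent evidence. From 0 to 10 dpa all 5 members passed, where 13.3% of all probe sets did. The difference moved down for WBC1 by −2.30 (SE 0.132, adjusted p = 5.14e-14), for the second WBC by −1.80 (SE 0.245, adjusted p = 4.72e-07), for LTPG1 by −3.62 (SE 0.102, adjusted p = 2.69e-20) and for LTP1 by −2.20 (SE 0.0749, adjusted p = 1.17e-18). The LTP family transcript moved the other way, by 4.89 (SE 0.144, adjusted p = 6.91e-20).

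From 10 to 15 dpa 4 of the 5 passed, against 12.6% of all probe sets. The deficit in the fl mutant became smaller for WBC1, by 1.88 (SE 0.132, adjusted p = 3.03e-12), for the second WBC, by 2.74 (SE 0.245, adjusted p = 3.23e-10), and for LTPG1, by 1.95 (SE 0.102, adjusted p = 6.64e-15). LTP1 was the exception, with a shift of 0.14 and a 95% interval of −0.01 to 0.30 (adjusted p = 0.111), an interval that leaves out any change of 3-fold. The LTP family transcript moved by −9.79 (SE 0.144, adjusted p = 4.93e-26), from higher to lower. The second WBC at 15 dpa carries the stray WT array described above.

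Between the labelled groups of 5 and 20 dpa 3 of the 5 passed, against 7.36% of all probe sets. The difference at 20 dpa was above that at 5 dpa for LTP1, by 2.92 (SE 0.0749, adjusted p = 8.15e-21), and for the second WBC, by 1.87 (SE 0.245, adjusted p = 4.15e-07), and below it for the LTP family transcript, by −2.80 (SE 0.144, adjusted p = 9.70e-15). WBC1, at −0.56 (adjusted p = 0.000958), and LTPG1, at 0.67 (adjusted p = 3.83e-06), passed the adjusted p and not the fold threshold. Exchanging the labels at both stages turns each of these signs.

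The study's tables name 19 further LTP probe sets (1 of them matched to a glycolipid transfer protein), and over the stages they split in both directions. None of the 19 was called at 0 dpa and 1 was higher at 5 dpa by the labels. At 10 dpa 3 were higher, 10 lower and 6 not called, with a median of −1.89, and at 15 dpa 1 was higher, 7 lower and 11 not called, with a median of −0.71. By the labels 6 were higher, 3 lower and 10 not called at 20 dpa, with a median of 0.19. These too were listed by the study as DETs on these arrays, and their counts are descriptive.

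Among the lower ones, the probe set matched to AT3G22620, an LTP of the membrane-anchored kind, averaged −2.29 in the fl mutant and 2.39 in WT at 10 dpa, a difference of −4.69 (SE 0.176, adjusted p = 1.11e-07). Of the 2 that share the LTP1 match AT2G38540 with the member, one differed by −2.89 at 10 dpa (SE 0.170, adjusted p = 1.49e-06). It stood at 0.29 at 15 dpa and at 0.19 by the labels at 20 dpa, called at neither. The other differed by −4.30 at 10 dpa (SE 0.0789, adjusted p = 4.35e-09). This one stood at 1.35 at 15 dpa, not called, and at −1.84 by the labels at 20 dpa, both of opposite sign to the member. Neither was lower at 15 dpa, where the member was. An LTP with no Arabidopsis match averaged −2.92 in the fl mutant and 2.77 in WT at 15 dpa, −5.69 (SE 0.113, adjusted p = 2.40e-07). At 10 dpa it was lower too, at −2.86 (adjusted p = 1.42e-06), and it did not show the change of sign of the LTP family member.

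Among the higher ones, a pair of probe sets share the match AT2G45180 and differed by 2.56 (SE 0.0823, adjusted p = 4.75e-08) and 2.43 (SE 0.0915, adjusted p = 1.11e-07) at 10 dpa. At 20 dpa they stood at −4.85 and −3.38 by the labels, opposite in sign to LTP1 at that stage. AT1G55260 was the match of the LTP called higher at 15 dpa, by 2.68 (SE 0.0538, adjusted p = 2.45e-07), with means of 1.32 in the fl mutant and −1.37 in WT. Of the pair matched to LTP3 (AT5G59320), one was lower at 15 dpa, at −3.21 (SE 0.140, adjusted p = 6.24e-06), and the other stood at −0.35 there, not called. The probe set matched to LTP4 (AT5G59310) stood at −3.71 at 10 dpa, −3.05 at 15 dpa and, as labelled, 2.22 at 20 dpa, all called and each of the same sign as LTP1 (adjusted p between 1.58e-08 and 1.10e-07).

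**Figure D4:**
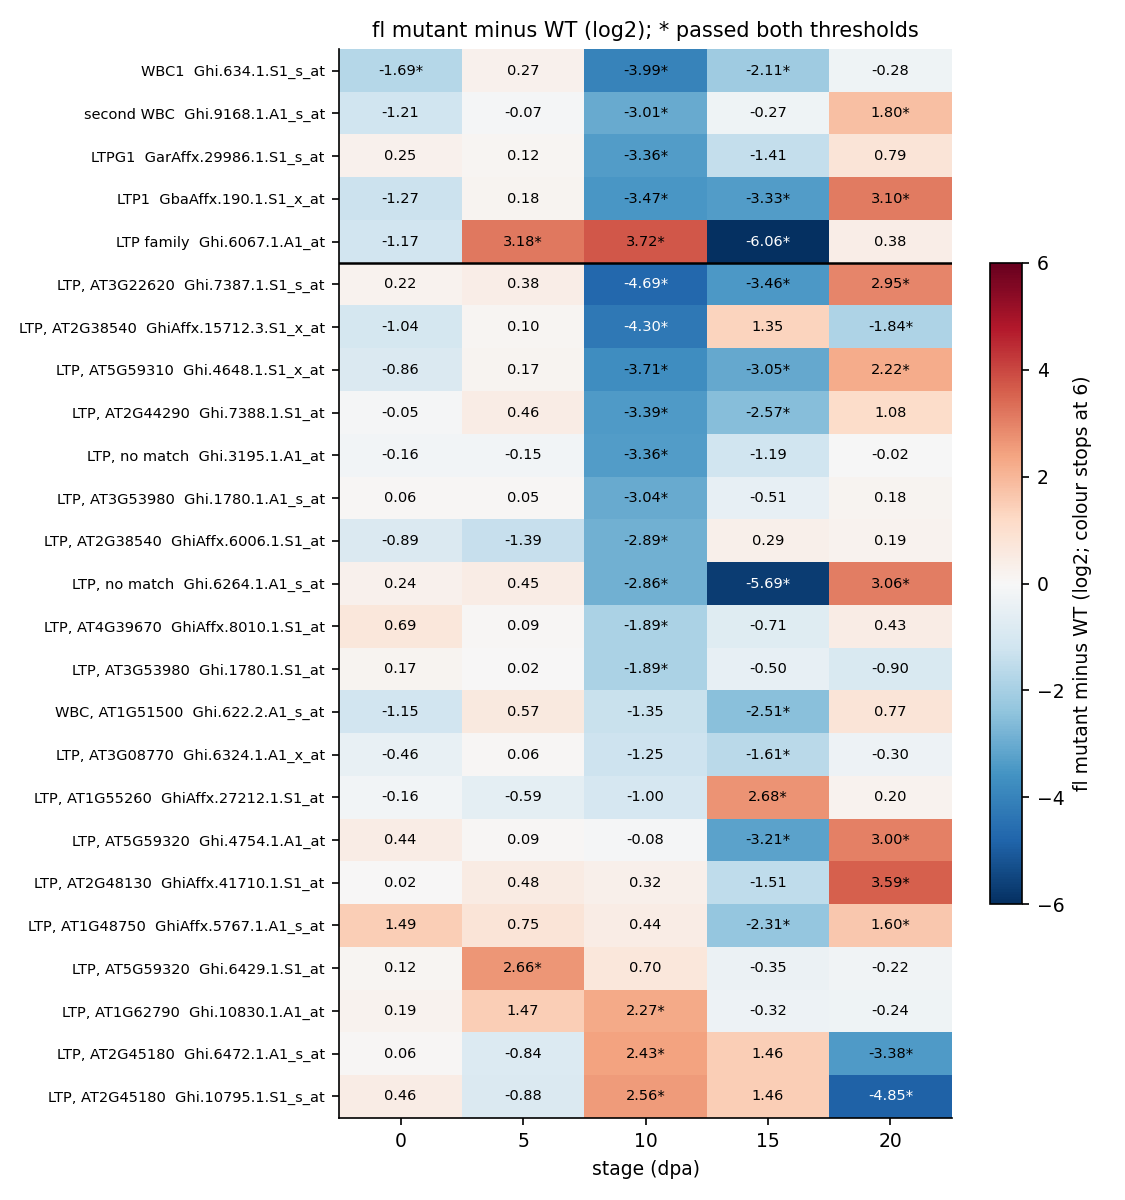
Difference fl mutant minus WT (log2, printed in each cell, labels as given) of the 5 transcripts, above the black line, and of 20 further LTP and WBC probe sets of the study's tables, ordered by their difference at 10 dpa. A star marks a difference that passed both thresholds, and the colour stops at 6. At 10 dpa 10 of the 19 further LTPs were lower and 3 higher, and at 15 dpa 7 were lower and 1 higher.

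Transcripts for the synthesis of very long chain lipids, listed by the study as DETs on the same arrays, were mostly lower at 10 and 15 dpa. Of 21 probe sets for very long chain fatty acid elongation, 4 were lower at 0 dpa, 16 at 10 dpa and 13 at 15 dpa, and none was higher at these stages. The match of AT3G06470, of the ELO elongase family, differed by −7.32 at 10 dpa (SE 0.151, adjusted p = 6.22e-09), CUT1, the condensing enzyme KCS6, by −5.15 at 15 dpa (SE 0.0740, adjusted p = 8.45e-08) and KCS11, another condensing enzyme, by −4.97 at 10 dpa (SE 0.119, adjusted p = 1.17e-08). The median over the 21 was −2.45 at 10 dpa and −1.89 at 15 dpa. As labelled, 1 was higher at 5 dpa, and 3 were higher and 3 lower at 20 dpa.

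Wax and cutin enzymes included an exception. A probe set for FLP1 (also called CER3), of alkane synthesis, was lower at 0 dpa, at −2.61, at 10 dpa, at −4.54, and at 15 dpa, at −5.06 (SE 0.132, adjusted p = 6.73e-07). The other FLP1 probe set stood at −0.45 at 0 dpa, not called, and was lower at 10 dpa (−2.16) and at 15 dpa (−2.79). In contrast, the probe sets matched to CER4, the reductase that makes primary alcohols, went apart at 10 dpa. One CER4 probe set was lower by 3.84 (SE 0.113, adjusted p = 2.96e-08) and the other higher by 2.64 (SE 0.163, adjusted p = 1.93e-06). All 3 probe sets of the cutin acyltransferase EMB3009 were lower at 10 dpa, led by one at −7.85 (SE 0.129, adjusted p = 3.70e-09). At 15 dpa only this one was called, at −4.2, and the others stood at −0.64 and 0.09. By the labels at 20 dpa it was higher, at 2.46, as were the first FLP1 probe set, at 3.14, and the CER4 probe set that was higher at 10 dpa, at 2.79. These wax and cutin probe sets, too, passed the cut-offs of the study on the same arrays, so their directions are descriptive.

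Full-size ABCG transporters are a separate branch of the family with a range of substrates, and each of 6 probe sets was called at 1 stage only. All of them thus passed the cut-offs of the study on these same arrays, and their counts are descriptive. None was called at 0 or 15 dpa, and as labelled 2 were higher at 5 dpa and 1 at 20 dpa. At 10 dpa 2 were higher, by 5.11 (SE 0.186, adjusted p = 9.44e-08) and by 2.31 (SE 0.111, adjusted p = 4.65e-07), both matched to the defence transporter PEN3, and 1 was lower, PDR12 (an abscisic acid transporter), at −1.62 (SE 0.0942, adjusted p = 1.38e-06). Other probe sets of the same matches were not called there. The remaining PEN3 probe set stood at −0.91, of opposite sign, and the remaining PDR12 probe sets at −0.16 and −0.23.

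**Figure D5:**
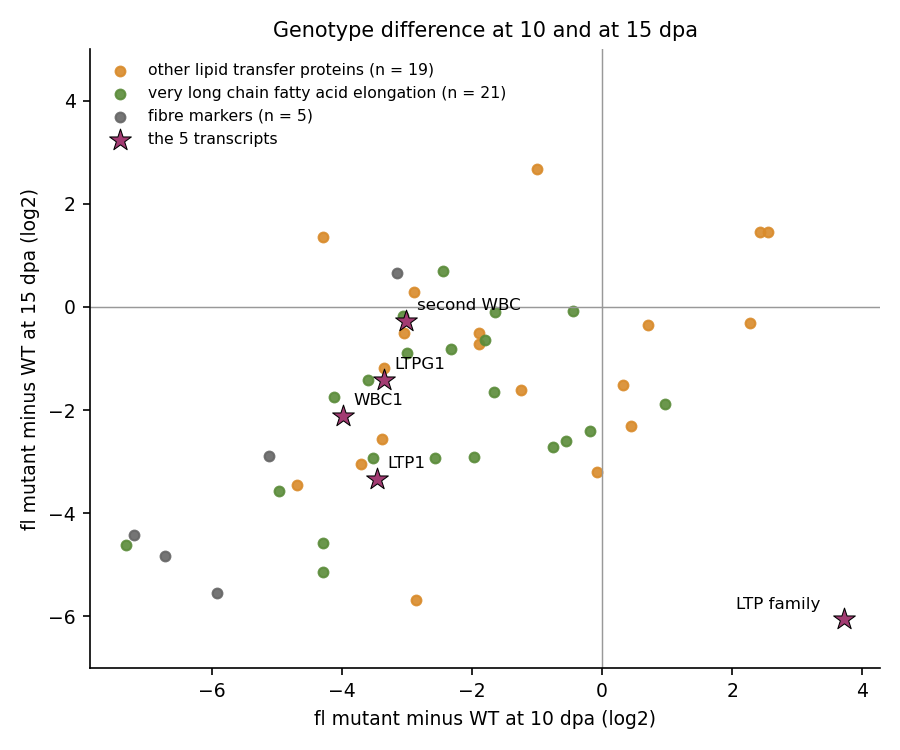
Difference fl mutant minus WT (log2) at 10 dpa (horizontal) and at 15 dpa (vertical) for the 5 transcripts (stars), 19 further LTPs, 21 probe sets of very long chain fatty acid elongation and 5 fibre markers. WBC1, the second WBC, LTPG1 and LTP1 lie to the left of 0 and below 0, and the LTP family transcript lies at 3.72 and −6.06.

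Markers of the fibre cell were lower in the fl mutant at 10 dpa, as were WBC1, the second WBC, LTPG1 and LTP1, while the LTP family transcript was higher there. The fibre markers are themselves reported by the study as down-regulated on these same arrays, so their direction is a description and not independent evidence. Of 5 fibre markers 1 was lower in the fl mutant at 0 dpa (GhMYB25, a transcription factor of fibre initiation, −5.17), 5 at 10 dpa and 4 at 15 dpa. Averaged over the 5, the fl mutant arrays lay between −2.99 and −2.70 and the WT arrays between 2.57 and 2.86 at 10 dpa, and between −1.78 and −1.62 in the fl mutant and 1.66 and 1.71 in WT at 15 dpa. At 10 dpa the markers differed by −7.20 (GLP1, a germin-like protein), −6.72 (AGP2, an arabinogalactan protein), −5.92 (the wall-loosening expansin EXPA1), −5.13 (RDL, a dehydration-induced protein) and −3.16 (GhMYB25), with adjusted p from limma between 3.70e-09 and 2.33e-06. At 15 dpa GhMYB25 stood at 0.66 and was not called.

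By the labels, most fibre markers were higher at 20 dpa, as were LTP1 and the second WBC, which had not been called at 15 dpa (−0.27). The remaining members were not called at 20 dpa, with WBC1 at −0.28, LTPG1 at 0.79 and the LTP family transcript at 0.38. There 4 of 5 fibre markers were higher in the arrays labelled fl mutant, which averaged between 1.21 and 1.35 over the 5, while those labelled WT averaged between −1.36 and −1.21. A β-globulin, a storage protein of the embryo, was higher by 9.57 in the same arrays and differed by between −0.22 and 0.09 at the 4 earlier stages. Of 2 chalcone synthase probe sets, flavonoid enzymes of the seed coat, one was lower at 0 dpa (−4.31), the other at 10 dpa (−4.85), and both were lower at 15 dpa. As labelled, the first of these was higher at 5 dpa (2.37) and lower at 20 dpa (−4.15), and the other was higher at 20 dpa (1.72), while no fibre marker was called at 5 dpa. Both chalcone synthase probe sets are also among the DETs of the study. The part of these markers in the members' values was not tested, and since the table holds no levels, absence of a marker could not be read.

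Among 2093 other probe sets that the study's tables give an Arabidopsis match, some had 30 array values close to those of a member. Those tables list DETs, so the probe sets searched had been selected for genotype differences on these same arrays. How common such correlations are among them was not computed, so a near neighbour is a description and not evidence of a specific link. The nearest by Pearson correlation to WBC1 were a glycosyl hydrolase of family 17 (0.978), actin 3 (0.972) and the condensing enzyme CUT1 (0.971). For LTP1 they were LTP4 (0.985), KCS11 (0.984) and tubulin alpha-5 (0.979). LTPG1 was nearest to DRT112, a plastocyanin (0.989), an aldolase (0.984) and the transcription factor NGA3 (0.983). LTP4 and LTP1 are both read by probe sets of the _x_at kind, which may share targets.

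The other members had neighbours of other kinds. The second WBC was nearest to a nucleoside triphosphate hydrolase (0.944), the lipase GLIP1 (0.940) and GRF10, a regulatory protein (0.916). The LTP family transcript was nearest to the galactosidase BGAL1 (0.977). Among the members themselves, the correlations of WBC1, the second WBC, LTPG1 and LTP1 with each other lay between 0.76 and 0.86, and those of the LTP family transcript with these 4 lay between −0.26 and 0.23. All of these describe 30 values that share their arrays and are centred within each stage.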

How the data were processed

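Arrays of fl mutant and WT ovules were summarised by the authors with RMA (background correction, quantile normalization, median polish) in GeneSpring GX, and the deposited values are on a log2 scale. A further step, seen in the values and not described in the sources used here, sets the median of every probe set to 0 over the 6 arrays of a stage. The table holds 24132 probe sets. After 103 control probe sets of the array were removed, the remaining 24029 were tested at each stage with limma 3.58.1 (lmFit and eBayes, R 4.3.3), 3 fl mutant against 3 WT arrays, without covariates or a filter on low values, since levels are not held. Adjusted p-values are Benjamini-Hochberg over all probe sets. Changes between stages came from the 30 arrays fitted together, with 1 mean for each of the 10 groups. The scripts were tested on simulated data. Array number limits the precision. Counts and correlations used Python 3.11.15 with pandas 2.3.3 and numpy 2.4.6.

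The members, gene lists, tests and alternatives were chosen with earlier results of these data known. Named transcripts are the members, the fibre markers, the further WBC and, per list, up to 3 with the largest called difference in each direction at 0, 10 and 15 dpa. The probe sets matched to LTP3 and LTP4, the second of those matched to LTP1, and further values of listed probe sets, were chosen after their values were seen. Gene names are those of the study's tables. The alternatives were the t-test of the methods, all 30 arrays in 1 fit, a replicate block, arrays centred on their 75th percentile or median, an adjusted p of 0.05, a fold of 2, each replicate left out, a fit restricted to the 12 arrays of 2 stages, and labels exchanged at 5 and 20 dpa (for the comparison of these stages with each other, added after the values were seen).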

Additional observations from a re-analysis of the deposited data

Results flagged for a closer look

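The genotype difference changed between stages in 12 of 15 tests on the members (3 comparisons of stages, limma adjusted p at most 0.01 and a change of at least 3-fold). Of all probe sets, 13.3% passed at 10 against 0 dpa, 12.6% at 15 against 10 dpa and 7.36% at 20 against 5 dpa. The members were listed by the study as DETs on these same arrays, so this count is a description and not independent evidence. At 10 against 0 dpa the change was −2.30 for WBC1, −1.80 for the second WBC, −3.62 for LTPG1, −2.20 for LTP1 and 4.89 for the LTP family transcript. At 15 against 10 dpa it was 1.88 for WBC1, 2.74 for the second WBC, 1.95 for LTPG1 and −9.79 for the LTP family transcript. At 20 against 5 dpa, by the labels, it was 1.87 for the second WBC, 2.92 for LTP1 and −2.80 for the LTP family transcript.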

How the results depend on the processing

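The calls of the members were the same in the t-test of the methods, with all 30 arrays fitted together, with arrays centred on their 75th percentile or median, and at an adjusted p of 0.05. Leaving out each replicate in turn changed none of them, and the probe sets called ranged from 365 to 374 at 0 dpa, 479 to 493 at 5 dpa, 2722 to 2795 at 10 dpa, 824 to 836 at 15 dpa and 1065 to 1084 at 20 dpa (371, 484, 2754, 824 and 1062 with all arrays). The second WBC at 15 dpa ranged from −0.58, without WT replicate 1, to −0.11. At a fold change of at least 2, 4 members were called at 0 dpa in place of 1 and 4 at 15 dpa in place of 3, and all probe sets called numbered 899, 1080, 5472, 1736 and 2607 from 0 to 20 dpa.

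With the labels exchanged at 5 dpa the values of WBC1, the second WBC, LTPG1, LTP1 and the LTP family transcript became −0.27, 0.07, −0.12, −0.18 and −3.18, and at 20 dpa 0.28, −1.80, −0.79, −3.10 and −0.38. The change at 20 against 5 dpa, an exchange chosen after seeing the data, became 0.56, −1.87, −0.67, −2.92 and 2.80.

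Same-numbered replicates showed little joint deviation from their group means (r from −0.16 to 0.16, over 0.1 in 2 of 15 pairs). This gave no clear sign that the numbers pair the arrays, but with 3 arrays per group it cannot exclude a pairing. With the replicate number as a block 371, 484, 2754, 824 and 1062 probe sets and 1, 1, 5, 3 and 2 members were called from 0 to 20 dpa, and 5, 4 and 3 members differed between stages (10 against 0, 15 against 10 and 20 against 5 dpa). Low signals could not be filtered, as levels are not held.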
